A study of Mus musculus with 45 samples.

Results

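Among the 8 hearts of mice on the regular diet that breathed mainstream cigarette smoke (RW-MS), 3 stood apart for transcripts of the atrium, and they are described here against the other 5. The members were chosen by a measured value, sarcolipin (Sln) below 8 log2 units on its brighter probe set, which held for RW-MS 2, 6 and 8, 3 of the 45 arrays in the series. The value just inside that limit was 5.42 (RW-MS 8) and the value just outside was 12.16 (RW-MS 4). The 3 and the 5 hearts share strain, sex, diet and exposure, so differences between them are differences within 1 group of the study. Because the arrays were chosen by a value of these same data, the differences between the 3 and the 5 are given as a description with no test.

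The hearts came from male C57BL/6 mice aged 15 weeks when exposure began, and each array held the labelled RNA of 1 biological replicate. The regular diet of the RW groups held about 5 kcal% fat, and the diet that made the DIO groups obese held 60 kcal% fat and was started at 6 weeks of age. Exposure was through the nose for 5 h a day, 8 times within 2 weeks, to mainstream smoke (MS), sidestream smoke (SS) or filtered air (SC, the sham control). Beside the 8 RW-MS arrays the series held 6 DIO-MS, 7 RW-SS, 8 DIO-SS, 8 DIO-SC and 8 RW-SC arrays, 37 in all. The tissue is labelled heart for every array, and the labels used here do not say which chambers, vessels or surrounding tissue were taken. Values are log2 expression levels per probe set, on which 1 unit is a doubling. The array medians lay between 6.2 and 6.24, and precision is limited by how many arrays each group has.

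The atria receive blood and the ventricles pump it, and heart muscle cells of the chambers use different forms of the same proteins. Sln encodes a small membrane protein that restrains the calcium pump of the sarcoplasmic reticulum, and in the mouse heart it is mainly atrial. Myl7 and Myl4 encode the atrial regulatory and essential light chains of myosin, while Myl2 and Myl3 encode their ventricular counterparts. Nppa encodes the precursor of atrial natriuretic peptide, a hormone stored in granules of atrial muscle cells and released on stretch. Fat lies on the surface of the heart, mostly near the atria and the great vessels, and brown fat surrounds the vessels of the chest.

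The promoters of 3 atrial genes are shown as examples, from RefSeq on GRCm38.p6. Each runs 5′ to 3′ along the gene from 250 bases before the start to 50 bases after it. Of 7 atrial genes looked up (Sln, Myl7, Myl4, Nppa, Stard10, Tmem163 and Dkk3), 5 had a promoter in the table. Those of Myl4 and Tmem163 are not shown, though their transcripts were lower in the same hearts. Capitals mark matches, on either strand, to the T-box motif AGGTGTGA, the NKX motif AAGTG, the GATA motif GATAA and the CArG box, the site read by serum response factor.
Myl7, chr11:5898733-5899032, minus strand: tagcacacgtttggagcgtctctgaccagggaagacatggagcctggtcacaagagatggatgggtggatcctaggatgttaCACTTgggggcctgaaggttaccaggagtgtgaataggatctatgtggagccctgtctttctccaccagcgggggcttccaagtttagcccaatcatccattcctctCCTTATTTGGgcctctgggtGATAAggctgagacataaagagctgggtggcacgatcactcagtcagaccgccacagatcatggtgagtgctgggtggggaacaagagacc
Nppa, chr4:148000472-148000771, plus strand: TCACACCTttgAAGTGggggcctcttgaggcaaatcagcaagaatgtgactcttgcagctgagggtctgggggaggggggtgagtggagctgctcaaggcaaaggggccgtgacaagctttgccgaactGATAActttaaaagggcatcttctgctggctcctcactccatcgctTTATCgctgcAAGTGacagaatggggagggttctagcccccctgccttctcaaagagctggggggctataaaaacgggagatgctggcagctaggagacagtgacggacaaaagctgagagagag
Stard10, chr7:101316836-101317135, plus strand: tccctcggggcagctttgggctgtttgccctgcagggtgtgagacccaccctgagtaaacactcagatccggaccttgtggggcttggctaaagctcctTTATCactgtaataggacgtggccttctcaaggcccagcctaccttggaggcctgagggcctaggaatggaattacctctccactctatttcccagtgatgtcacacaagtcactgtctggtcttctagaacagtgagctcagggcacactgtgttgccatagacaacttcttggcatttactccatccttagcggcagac
Positions count from the start of the gene to the first printed base of a match, and the CArG box reads the same on both strands. The Myl7 window held an NKX match at -168, a CArG box at -61 and a GATA match at -41. The Nppa window held a T-box match at -250, NKX matches at -239 and -65, and GATA matches at -121 and -75. The Stard10 window held a GATA match at -151. Among 32851 promoter windows of the same length, 1.28% held the T-box motif, 46.4% the NKX motif, 25.4% the GATA motif and 1.63% a CArG box. These matches describe letters in the windows and say nothing of binding.

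The 4 atrial markers were far lower in RW-MS 2, 6 and 8 than in any other heart of the series. Sln read 4.47, 5.37 and 5.42 in RW-MS 2, 6 and 8, against 12.86, 12.97, 12.16, 12.70 and 12.42 in RW-MS 1, 3, 4, 5 and 7, a difference of -7.53 on the gene that chose the arrays, whose low values lie at the dim end where levels are compressed. Myl7 read 5.46, 6.73 and 7.26 in RW-MS 2, 6 and 8, against 13.56, 13.38, 12.91, 13.32 and 13.11 in the other 5, a difference of -6.77. Myl4 read 5.75, 6.94 and 7.04 in the 3 hearts, against 13.37, 13.45, 12.75, 13.22 and 12.95 in the 5, a difference of -6.57. All 3 values lay below all 5 for each gene, and RW-MS 2 was the lowest for each. The 37 arrays of the other groups read 11.43 to 13.16 for Sln, 12.20 to 13.69 for Myl7 and 12.04 to 13.58 for Myl4, so no array lay between the 2 sets.

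Nppa was lower as well but stayed bright. It read 10.50, 10.57 and 10.79 in RW-MS 2, 6 and 8, against 13.90, 14.13, 13.74, 13.93 and 13.86 in the other 5, a difference of -3.29, and 13.03 to 14.30 in the 37 other arrays. Nppa is also made in ventricular muscle cells, most in the embryo and under load. Sln chose the hearts, so its level does not bear on the description of them as lacking atrial tissue. Of the markers that did not choose them, Myl7 and Myl4 were low and Nppa remained bright. In RNA from a whole tissue sample, fewer cells of a type and less RNA per cell cannot be told apart.

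**Figure D1:**
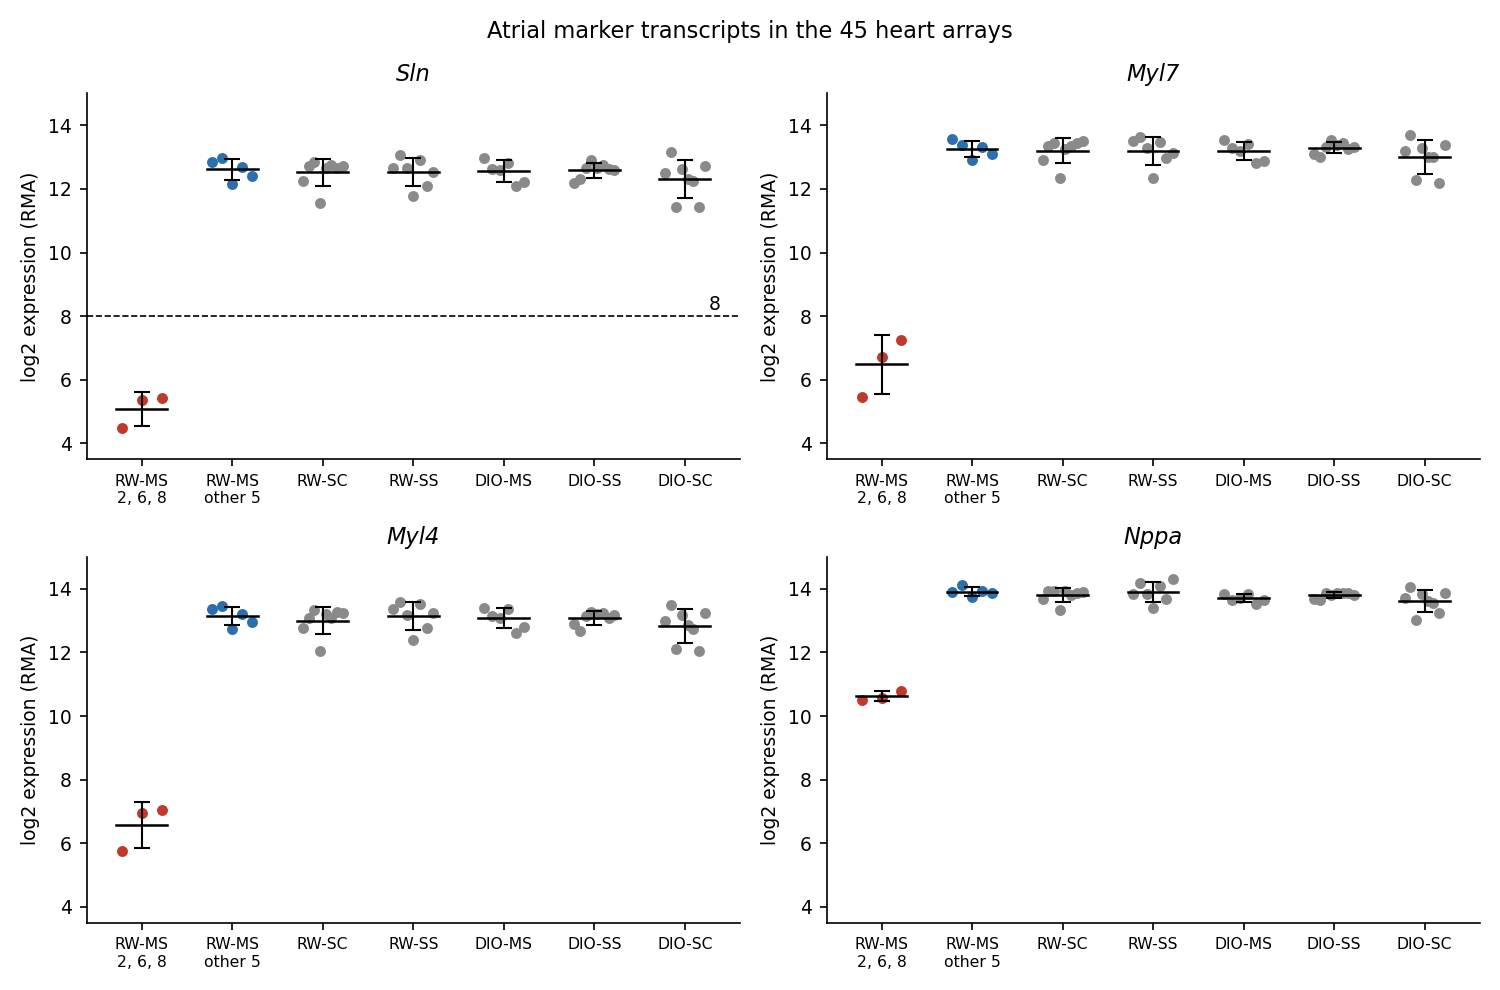
Log2 expression (vertical axis) of Sln, Myl7, Myl4 and Nppa, 1 point per array, in RW-MS 2, 6 and 8 (red), the other 5 RW-MS arrays (blue) and the 5 other groups (grey), with mean and SD as black lines and the limit of 8 for Sln dashed. For Sln the 3 red points lie between 4.47 and 5.42 and all other arrays between 11.43 and 13.16.

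Second probe sets told how far the size depends on the probe set. Dkk3 differed by -2.53 on its brighter probe set and by -2.31 on the other. A second Sln probe set, at most 6.78 in the other groups, differed by -0.96, and a second Myl4 probe set, at most 6.38 there, by -0.11. A dim probe set can thus show a small difference where a bright one of the same gene shows a large one, and the brightest probe set stood for each gene below. Genes whose mean over all 45 arrays lay in the lowest 25% (below 4.90) were left out, which kept 9295 genes.

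RNA quality measures overlapped between the sets. The 3′ minus 5′ difference of the Actb control probe sets was 1.14 to 1.32 in RW-MS 2, 6 and 8, 1.07 to 1.32 in the other 5 and 1.06 to 1.65 in the 37 other arrays. That of Gapdh was 0.22 to 0.36 in the 3 hearts, 0.22 to 0.35 in the 5 and 0.21 to 0.94 in the 37. No batch is named in the labels.

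Of the 9295 genes, 59 (0.635%) were lower by at least 1 log2 unit in RW-MS 2, 6 and 8 with no overlap with the other 5, and 0 (0.0%) were higher by that much. Without regard to size, 687 genes (7.39%) were lower and 347 (3.73%) higher with no overlap, and the median difference of all genes was 0.01. The 15 largest differences mixed atrial genes with genes of fat. They were Sln, Myl7, Myl4, Adipoq, Ucp1, Car3, Pck1, Scd1, Cyp2e1, Tmem163, Cdo1, Nppa, Fasn, Hp and Apoc1, the last at -2.83. In 12 of the 59 genes the mean of the 3 hearts lay below 4.90, where RMA values level off, so that these differences may be understated. In 16 of the 59, every one of the 37 other arrays lay above all 3 hearts.

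Other genes with known atrial expression were lower too, though not all of them. Of 11 tested members of that list 9 were lower with no overlap, against 7.39% of all genes, and 5 by at least 1 unit, against 0.635%. Their median difference was -0.83, against 0.01 over all genes. This list and those below were chosen with earlier results of these data known, so their counts beside all genes are a description. Tmem163, a zinc transporter, read 3.98, 4.09 and 4.45 in RW-MS 2, 6 and 8, against 7.89, 8.55, 7.40, 7.86 and 7.42 in RW-MS 1, 3, 4, 5 and 7, a difference of -3.65. Stard10, which carries lipid between membranes, averaged 8.09 ± 0.05 in the 3 hearts and 9.96 ± 0.29 in the 5 (SD), a difference of -1.87. The 3 and the 5 did not overlap for either gene.

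Other atrial genes on the list were also lower. Dkk3, a secreted protein of the Dickkopf family, averaged 6.05 ± 0.43 in the 3 hearts and 8.58 ± 0.58 in the 5 (SD). Myl1, the essential light chain of fast skeletal muscle that is also expressed in atria, averaged 9.54 ± 0.21 in the 3 and 10.77 ± 0.19 in the 5. Pam, the enzyme that amidates peptide hormones and sits in the membrane of atrial granules, averaged 10.11 ± 0.10 in the 3 and 11.11 ± 0.17 in the 5. Pam thus stayed bright in the 3 hearts.

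Regulators and channels among them differed by less than 1 unit. Nr2f2, the nuclear receptor COUP-TFII that maintains atrial identity in the mouse, differed by -0.51, Kcnj3, a subunit of the potassium channel opened by acetylcholine, by -0.51, and Tbx5, a T-box factor of the atria and left ventricle, by -0.35. Cacna2d2, an auxiliary subunit of calcium channels, differed by -0.83. Kcna5, which encodes a repolarising potassium channel, and Bmp10, a growth factor of the right atrium, overlapped, with differences of 0.18 and 0.02. Bmp10 averaged 5.03 in the 3 hearts and 5.01 in the 5, near the limit for dim genes.

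Genes of white and brown fat were lower in the same 3 hearts. Of 14 tested members 13 were lower with no overlap, against 7.39% of all genes, and 11 of them by at least 1 unit, against 0.635%. Their median difference was -2.0, against 0.01 over all genes. This list too was chosen with earlier results known, so its counts are a description. Adipoq, the fat cell hormone adiponectin, read 4.07, 6.68 and 5.98 in RW-MS 2, 6 and 8, against 11.02, 10.17, 9.80, 10.47 and 10.64 in RW-MS 1, 3, 4, 5 and 7. Ucp1, the uncoupling protein that makes heat in brown fat, read 4.67, 6.12 and 4.57 in the 3 hearts, against 10.33, 9.28, 9.82, 9.61 and 9.75 in the 5. Car3, a carbonic anhydrase abundant in fat, read 6.48, 9.87 and 9.29 in the 3, against 13.33, 12.81, 12.25, 12.80 and 13.11 in the 5. The differences were -4.84, -4.64 and -4.31, and no values overlapped.

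Among the other fat genes, Pck1, an enzyme that supplies glycerol for fat storage in these cells, differed by -3.79, the desaturase Scd1 by -3.75, the fatty acid synthase Fasn by -3.20 and the lipid droplet protein Cidec by -2.28. Fabp4, the fatty acid binding protein of fat cells and also of capillary endothelium, differed by -0.18, and the triglyceride lipase Pnpla2 overlapped at -0.10. Cidea, a lipid droplet protein of brown fat, averaged 9.43 ± 0.08 in the 3 and 10.48 ± 0.18 in the 5.

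Low Adipoq also occurred in hearts with high Sln. In 7 arrays of other groups (RW-SC 4, DIO-SC 3, 4, 6 and 7, DIO-MS 2 and RW-SS 4) Adipoq read 4.63 to 6.30, below the 6.68 of RW-MS 6, while Sln read 11.43 to 12.64 in them. Of these, DIO-SC 3 and 7 (both 11.43), RW-SC 4 (11.56) and RW-SS 4 (11.78) had the lowest Sln of the 37 other arrays. Over the 37 other arrays Adipoq spanned 6.62 log2 units and Sln 1.73. With group means removed, the 2 genes were correlated over those arrays (Pearson r = 0.63, permutation p = 3e-05, and Spearman rho = 0.55, p = 0.00055, 100000 resamples, two-sided, 1 relation computed). Without DIO-SC 3 and DIO-SC 7, the arrays farthest from the median for Sln, r was 0.58 (permutation p = 0.00022). The 5 other RW-MS hearts all read 9.80 or more for Adipoq, while the RW-SC hearts read 6.09 to 11.21.

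**Figure D2:**
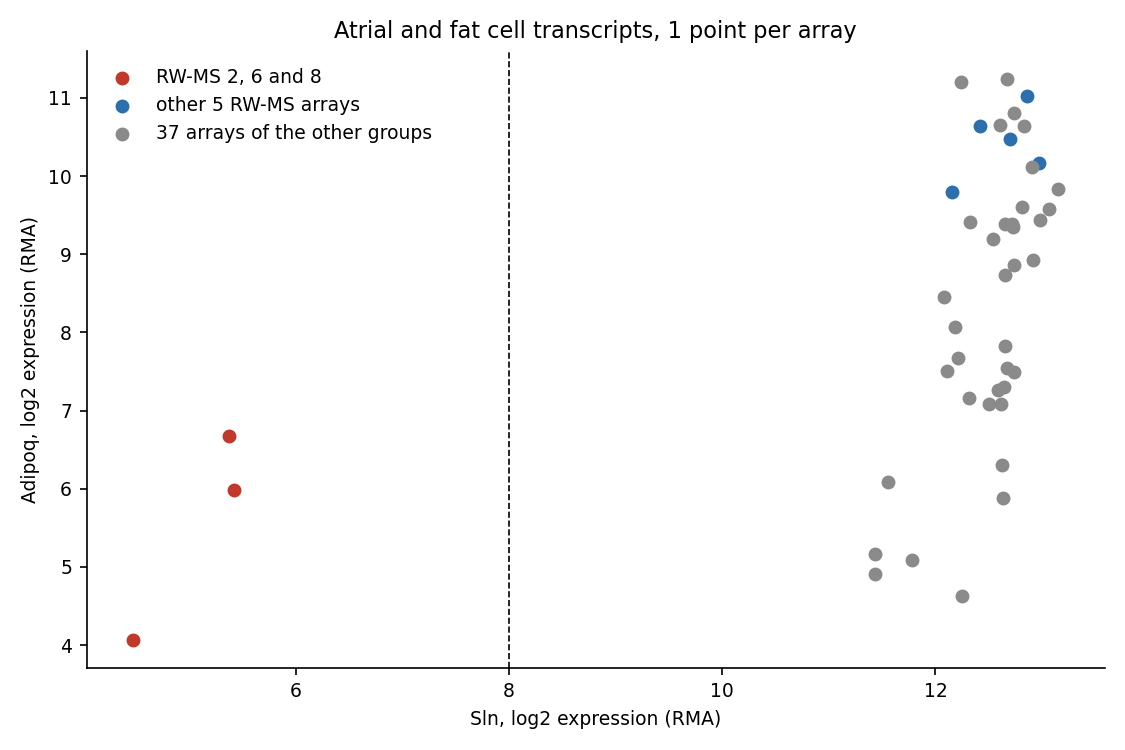
Log2 expression of Adipoq (vertical) against Sln (horizontal), 1 point per array, in RW-MS 2, 6 and 8 (red), the other 5 RW-MS arrays (blue) and the 37 arrays of the other groups (grey), with the limit of 8 for Sln dashed. The red points are apart from all others on the horizontal axis, while on the vertical axis 7 grey points lie below the highest red point at 6.68.

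Genes of the ventricle were at the same level or slightly higher in the 3 hearts. Of 13 tested members 2 were higher with no overlap and none was lower, with a median of 0.13, against 3.73% of all genes higher with no overlap. Myl2 read 14.52, 14.54 and 14.53 in RW-MS 2, 6 and 8, against 14.50, 14.46, 14.48, 14.46 and 14.46 in the other 5, a difference of 0.06 with no overlap. Kcnd2, a channel of the transient outward current, differed by 0.31 with no overlap. Irx4, the ventricular homeobox factor, averaged 7.55 ± 0.14 in the 3 and 7.29 ± 0.10 in the 5 and overlapped. Myl2 sits near the top of the array's range, where values are compressed.

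Of 16 calcium cycling genes Sln was lower and 2 were higher with no overlap, against 3.73% of all genes higher. The 2 were Cacna1c, the pore of the L-type calcium channel (0.23), and Trdn, which anchors calsequestrin at the release channel (0.21). Phospholamban (Pln), the counterpart of Sln in the ventricle, differed by 0.05, the calcium pump Atp2a2 by -0.01 and the release channel Ryr2 by 0.03, all overlapping. Among fatty acid oxidation genes 5 of 20 were higher with no overlap and none lower, with a median of 0.09. Over all genes the largest difference upward without overlap was in Ucp3, a mitochondrial carrier of muscle. It read 7.88, 7.65 and 7.45 in RW-MS 2, 6 and 8, against 6.66, 6.91, 7.09, 7.29 and 7.01 in the other 5. The arrays of the DIO groups read 7.48 to 8.54 for Ucp3. Beside Ucp3, at 0.67, only the water channel Aqp4 (0.59) and the homeobox gene Irx2 (0.55) were higher by at least 0.5 with no overlap. For Irx2 the margin was narrow, with 6.14 in RW-MS 2 and 6.11 in RW-MS 4.

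Connective tissue and vessel wall genes were lower by smaller amounts, to be read against the 7.39% of all genes that were lower with no overlap. Of 14 smooth muscle and great vessel genes 9 were lower with no overlap (median -0.43), among them the contractile genes Cnn1 (-0.95), Myh11 (-0.77) and Tagln (-0.76). Of 14 fibroblast genes 7 were lower (median -0.31), with Fbln1 at -0.59 and Col3a1 at -0.58. Of 15 valve and cartilage-like matrix genes 5 were lower and 1 higher (median -0.21), led by the collagen binding protein Fmod (-1.36) and the matrix protein Comp (-1.16).

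Fmod read 6.16, 7.35 and 7.69 in RW-MS 2, 6 and 8, against 8.05, 9.23, 7.80, 8.58 and 8.48 in the other 5. The 2 sets came within 0.11 units of each other there. Without RW-MS 2 the differences were -0.91 for Fmod and -0.86 for Comp, both under 1 unit. Comp was also under it, at -0.995, without RW-MS 3, and Fmod was -0.71 as the mean of its probe sets. Epicardium and mesothelium genes had a median of -0.46, but only 1 of 11 did not overlap, Aldh1a1, which makes retinoic acid (-0.34). The mesothelial genes Upk3b (-1.07) and Krt18 (-1.16) overlapped. Of 15 endothelium and endocardium genes 5 were lower with no overlap. Among them were Npr3, the clearance receptor for natriuretic peptides (-0.87), and Plvap, a protein of fenestrated endothelium (-0.71). Of all genes 7.39% were lower with no overlap, and the 1 of 11 for epicardium and mesothelium lies near that share.

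Most other tissue lists held few genes without overlap. Counting members lower and higher with no overlap, conduction genes had 2 and 1 of 9, neuron and Schwann cell genes 2 and 0 of 13, macrophage and neutrophil genes 3 and 0 of 12 and skeletal muscle genes 1 and 0 of 7. Potassium channels had 1 and 1 of 13, peptide processing genes 2 and 0 of 11, and the list of retinoic acid genes and cardiac transcription factors 3 and 1 of 17. No member was without overlap among 6 lung, 11 lymphocyte, 3 red cell, 14 circadian clock and 16 immediate early and heat shock genes. Retinoic acid genes of this kind included Rbp4 at -1.68, a retinol carrier that fat cells also secrete. These counts stand against 7.39% lower and 3.73% higher over all genes.

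**Figure D3:**
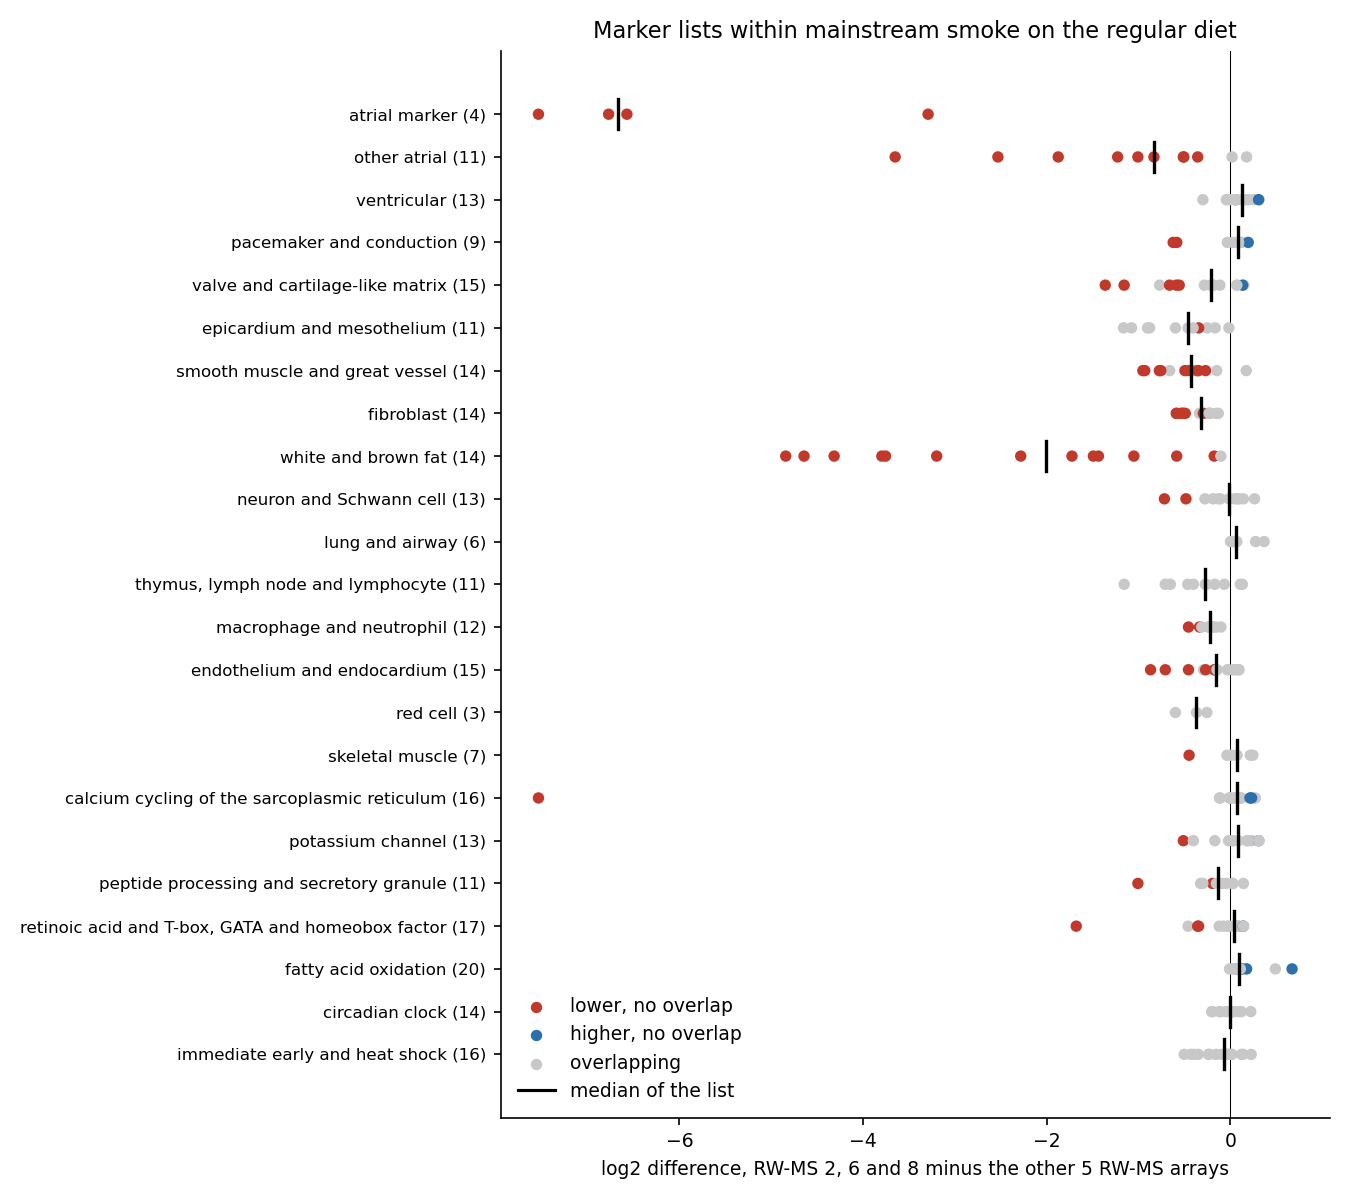
Log2 difference, RW-MS 2, 6 and 8 minus the other 5 RW-MS arrays (horizontal), for each tested member of 23 gene lists, with the number tested in parentheses, coloured by whether the 2 sets overlap, and the list median as a black bar. Atrial markers (median -6.67) and fat genes (-2.0) lie farthest to the left, and ventricular genes (0.13) lie near 0.

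The 37 arrays of the other groups were not used to choose the hearts, so relations with Sln were tested there. A slope on Sln was fitted for each gene with study group in the model (limma, Benjamini-Hochberg adjusted, threshold 0.05). It was positive for 293 of 9294 genes (3.15%) and negative for 159 (1.71%). Of the 58 genes lower by at least 1 unit in the split, Sln itself left out, 29 had a positive slope past the threshold and 0 a negative one, with a median slope of 0.69 against -0.01 over all genes. Of the 293 genes, 176 (60.1%) were lower with no overlap in the split, against 7.39% of all genes. These 176 are 25.6% of the 687. Without the DIO-SC arrays, 79 genes had a positive slope. Sln varied much less in these arrays than in the split, and a slope does not say that a gene would differ as far.

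The steepest positive slopes were those of Adipoq (2.56 log2 units per unit of Sln), Car3 (2.27), Scd1 (1.73) and Cyp2e1 (1.64), followed by Cdo1, Hp, Pon1, Fasn, Hamp and Ptgfr between 0.98 and 1.39. Myl7 had 0.87 ± 0.03 (SE, adjusted p = 1.28e-20). By list, 9 of 11 atrial genes beside the markers, 9 of 14 fibroblast genes and 4 of 14 fat genes had a positive slope past the threshold, against 3.15% of all genes. The lists were chosen with earlier results of these data known, so these shares are a description. The fit was repeated with Adipoq beside Sln, an addition made after the data were seen.

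With both measures in the model, the genes of the split separated into an Sln set and an Adipoq set. A positive slope on Sln was past the threshold for 66 of 9293 genes (0.71%), and one on Adipoq for 188 (2.02%), or 31 and 94 genes without the RW-SC arrays. Of the 57 genes lower by at least 1 unit (without Sln and Adipoq), 16 had a positive slope on Sln only, 30 on Adipoq only, 0 on both and 11 on neither. At an unadjusted p below 0.05, 0 of the 57 and 22 of all genes were positive on both. The sets are defined by these slopes, and both measures were chosen with the split known, so the slopes of their members given next are a description.

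The 16 genes with a slope on Sln only were Myl7, Myl4, Tmem163, Nppa, Dkk3, Fgf12, Stard10, Gpx3, Lgals3, Sytl2, Ptgfr, Myl1, Cacna1h, Olfm1, Gucy1a1 and Pam. Genes among them outside the naming rule were named after their values were seen. Their slopes on Sln ran from 0.50 (Nppa) to 0.99 (Fgf12, a modulator of sodium channels), and their slopes on Adipoq from -0.03 to 0.03. Myl7 had 0.84 ± 0.04 per unit of Sln (adjusted p = 2.50e-16) and Nppa 0.50 ± 0.05 (adjusted p = 7.36e-08). Their median difference in the split was -1.49. With Sln they make 17 genes, and in 15 of these every other array lay above all 3 hearts.

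Several of the 16 are known for other roles than in muscle contraction. Gpx3, a secreted glutathione peroxidase, read 9.32, 9.29 and 9.31 in RW-MS 2, 6 and 8, against 11.03, 11.11, 10.46, 10.84 and 10.71 in the other 5. Lgals3, the galactose binding lectin galectin-3, read 6.36, 6.16 and 6.05 in the 3 hearts, against 7.76, 8.09, 7.19, 7.62 and 7.63 in the 5. The 3 hearts were close together for both genes and well below the 5. Cacna1h, a T-type calcium channel, averaged 5.47 ± 0.21 in the 3 and 6.66 ± 0.43 in the 5 (SD), a difference of -1.19. Ptgfr, the receptor for prostaglandin F, differed by -1.40, Sytl2, which tethers secretory vesicles, by -1.43, and Gucy1a1, a subunit of the nitric oxide receptor, by -1.13. The values of Sytl2, Gucy1a1 and Ptgfr in the 3 hearts lay at 4.59 to 5.03, near the dim end of the array.

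The 30 genes with a slope on Adipoq only included Ucp1, Car3, Pck1, Scd1, Cyp2e1, Cdo1, Fasn, Hp, Apoc1, Cidec, Retn, Rbp4, Thrsp, Slc27a2 and Cidea. Their slopes on Adipoq ran from 0.13 to 1.15 (Ucp1, 1.15 ± 0.09, adjusted p = 1.54e-11), and their slopes on Sln from -0.92 to 0.14. Their median difference in the split was -1.93. In 0 of these genes, Adipoq included, did every other array lie above all 3 hearts. The 11 genes past on neither were Gpm6a, Elovl3, Stk26, Fmod, Slc39a8, Nox4, Cd24a, Comp, Sfrp2, Dio2 and Limd2, named after their values were seen.

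The slopes over all genes were set beside the split. Of the 66 genes with a positive slope on Sln, 49 (74.2%, and 7.13% of the 687) were lower with no overlap, and of the 188 with a positive slope on Adipoq 132 (70.2%, and 19.2% of the 687), against 7.39% of all genes. These counts include the 16 and the 30 genes above, and most of the 687 had neither slope past the threshold. The 66 genes, 0.71% of all genes, held 8 of the 11 atrial genes beside the markers, among them Tbx5 (0.37), Kcnj3 (0.38) and Nr2f2 (0.27). A positive slope on Adipoq was past the threshold for 11 fat genes, on a list of 14 that holds Adipoq itself. It was past it for 2 of 14 smooth muscle genes, Acta2 and Cnn1. Over all genes the share was 2.02%, and the lists were chosen with earlier results of these data known. Of the 14 fibroblast genes, 9 of which had a slope on Sln alone, 0 had one past the threshold on either measure in this model. Fmod (0.52, adjusted p = 0.261) and Comp (0.42, adjusted p = 0.213) did not pass for Sln.

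**Figure D4:**
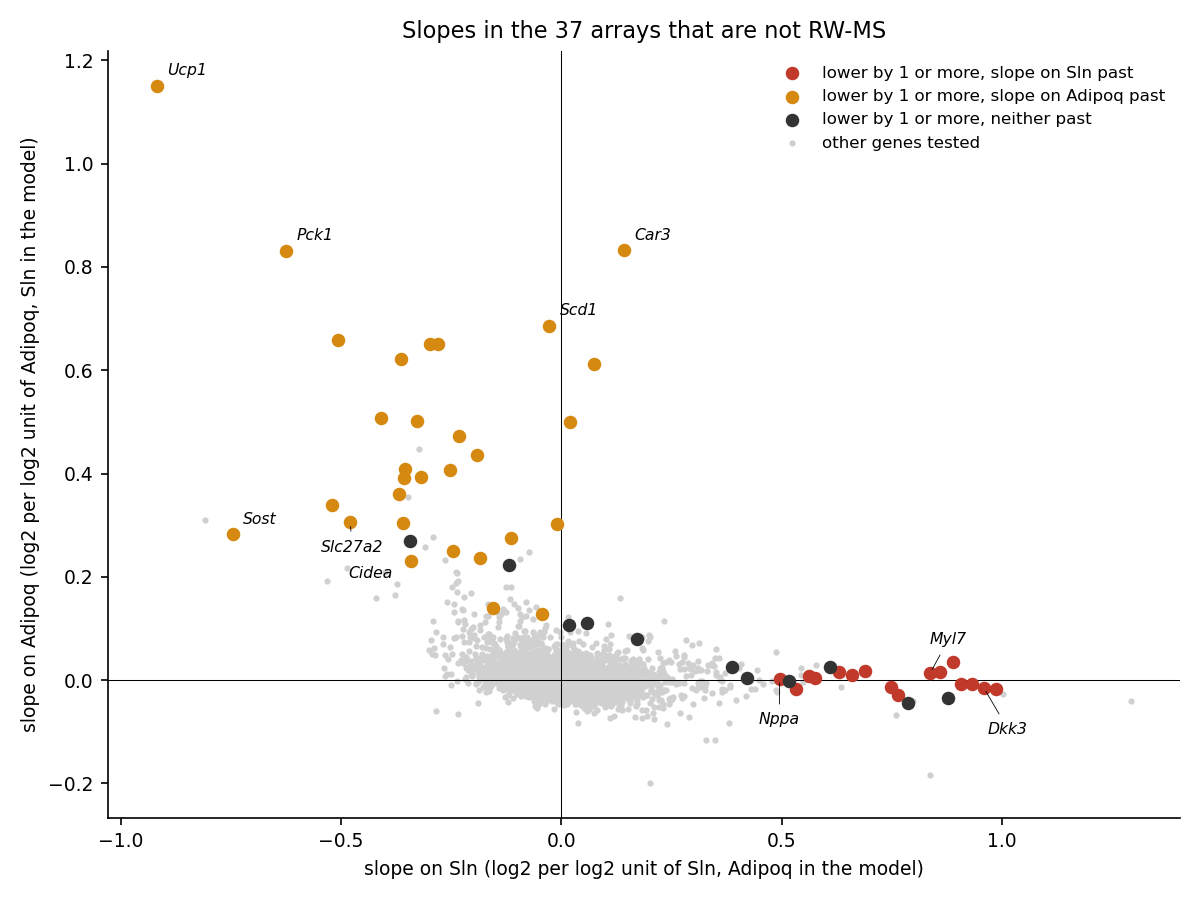
Slope on Adipoq (vertical) against slope on Sln (horizontal), in log2 units per log2 unit, from 1 model in the 37 arrays that are not RW-MS, for genes lower by at least 1 unit in RW-MS 2, 6 and 8 (coloured by which slope passed) and all other genes (grey). The 16 red points lie along the horizontal axis, from 0.50 to 0.99, and the 30 orange points rise along the vertical axis to 1.15.

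A few genes ran the other way, the ventricular factor Irx4 among them. With both measures in the model 5 genes (0.0538%) had a negative slope on Sln, namely Irx4, Smco4, Smyd2, Ptges2 and Rcl1, named after their values were seen. Irx4 had -0.22 (adjusted p = 0.041) and Smyd2, a lysine methyltransferase of muscle, -0.16 (adjusted p = 0.0033). Smyd2 read 10.21, 10.16 and 10.14 in RW-MS 2, 6 and 8, against 9.96, 9.77, 10.09, 9.91 and 9.62 in the other 5. With Sln alone in the model Irx2 had the steepest negative slope, at -0.40 ± 0.10 (adjusted p = 0.0152), followed by Abca4 (-0.30) and Ung (-0.24). Of the 159 genes with a negative slope in that model 16 were higher with no overlap in the split and 0 lower, against 3.73% and 7.39% of all genes.

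The study's comparison of RW-MS with RW-SC hearts was fitted with all 45 arrays and again with 42, leaving out RW-MS 2, 6 and 8. With all arrays 638 of 9295 genes (6.86%) were past the threshold, 266 higher (2.86%) and 372 lower (4.0%) in RW-MS. Without the 3 hearts 380 (4.09%) were past it, 160 higher (1.72%) and 220 lower (2.37%). The fits shared 327 genes, 51.3% of the first count and 86.1% of the second, and all kept their direction. The second fit has 5 RW-MS arrays in place of 8, and the hearts were left out by their Sln values. Leaving out RW-MS 3 as well gave 105 higher.

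With all arrays the 4 atrial markers fell in RW-MS, and without the 3 hearts none of them passed the threshold, a change set by the choice of those hearts. Sln gave -2.72 ± 0.82 (SE, adjusted p = 0.0338) in RW-MS minus RW-SC with all 8 RW-MS arrays, and 0.10 ± 0.23 (adjusted p = 0.871) with 5. Myl7 gave -2.48 ± 0.74 (adjusted p = 0.0325) with 8 and 0.06 ± 0.20 (adjusted p = 0.923) with 5. Myl4 gave -2.32 (adjusted p = 0.0408) with 8 and 0.15 (adjusted p = 0.791) with 5, and Nppa -1.12 (adjusted p = 0.0496) with 8 and 0.11 (adjusted p = 0.725) with 5. Over Sln and the 16 genes of its set the median difference was -0.64 with all arrays, 5 of 17 past the threshold, and 0.05 without the 3 hearts, 0 past it (limma). At an unadjusted p below 0.05 those counts were 15 and 0. Of all genes, 6.86% were past the adjusted threshold with all arrays and 4.09% without the 3 hearts. Sln chose the 3 hearts and the 16 genes were picked as lower in them, so this change too is set by that choice.

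Of the 311 genes past the threshold only with the 3 hearts, 137 were higher and 174 lower in RW-MS, and 268 had a smaller difference without them. Only 41 of them (13.2%) did not overlap in the split, against 11.1% of all genes. Beside the markers, the 10 largest changes among them were Myh7, Olfm1, Npr3, Ddit4, Mmp3 and Plagl1. Myh7, the slow myosin heavy chain, was -0.62 ± 0.19 (adjusted p = 0.0341) with 8 RW-MS arrays and -0.61 ± 0.21 (adjusted p = 0.089) with 5. Its difference hardly changed, and it overlapped in the split (-0.04). Npr3, in contrast, was -0.56 (adjusted p = 0.0112) with 8 and -0.24 (adjusted p = 0.364) with 5.

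Of 53 genes past the threshold only without the 3 hearts, 31 were higher and 22 lower in RW-MS. In the split 19 of them (35.8%) did not overlap, against 11.1% of all genes. In 0 of the 53 was the difference smaller without the 3 hearts, so that share is partly set by how these genes were picked. On the list of fat genes 1 of 14 was past the threshold without the 3 hearts, against 4.09% of all genes. Slc27a2, an acyl-CoA synthetase and fatty acid transporter, rose by 1.58 ± 0.34 (adjusted p = 0.00404) with 5 RW-MS arrays and read 0.83 ± 0.36 (adjusted p = 0.168) with 8. Cidea rose by 0.83 (adjusted p = 0.0178) with 5 and read 0.44 (adjusted p = 0.234) with 8. The lipid antigen presenting molecule Cd1d1 rose by 0.84 (adjusted p = 0.0169) with 5 and read 0.43 (adjusted p = 0.25) with 8. Over Adipoq and the 30 genes of its set the median difference was -0.16 with all arrays, 0 of 31 past the threshold, and 0.71 without the 3 hearts, 3 past it (limma, 2 and 9 at an unadjusted p below 0.05). These genes were defined as lower in the 3 hearts left out, so the upward move of their median is set by that choice.

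Adipoq itself averaged 10.42 in the 5 hearts and 8.99 ± 1.85 in the 8 RW-SC hearts (SD), and its difference of 1.43 was not past the threshold (adjusted p = 0.442). Alas2, the heme synthesis enzyme of red cell precursors, gained its call as well, at 0.91 (adjusted p = 0.0269) with 5 RW-MS arrays and 0.68 (adjusted p = 0.0532) with 8, and overlapped in the split (-0.60). The other genes among the 10 largest gained were Smc2, Dnase2a, Fgf16, Fmo1, Rab40b and Csad. Whether fat in the samples accounts for any of these differences was not tested.

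**Figure D5:**
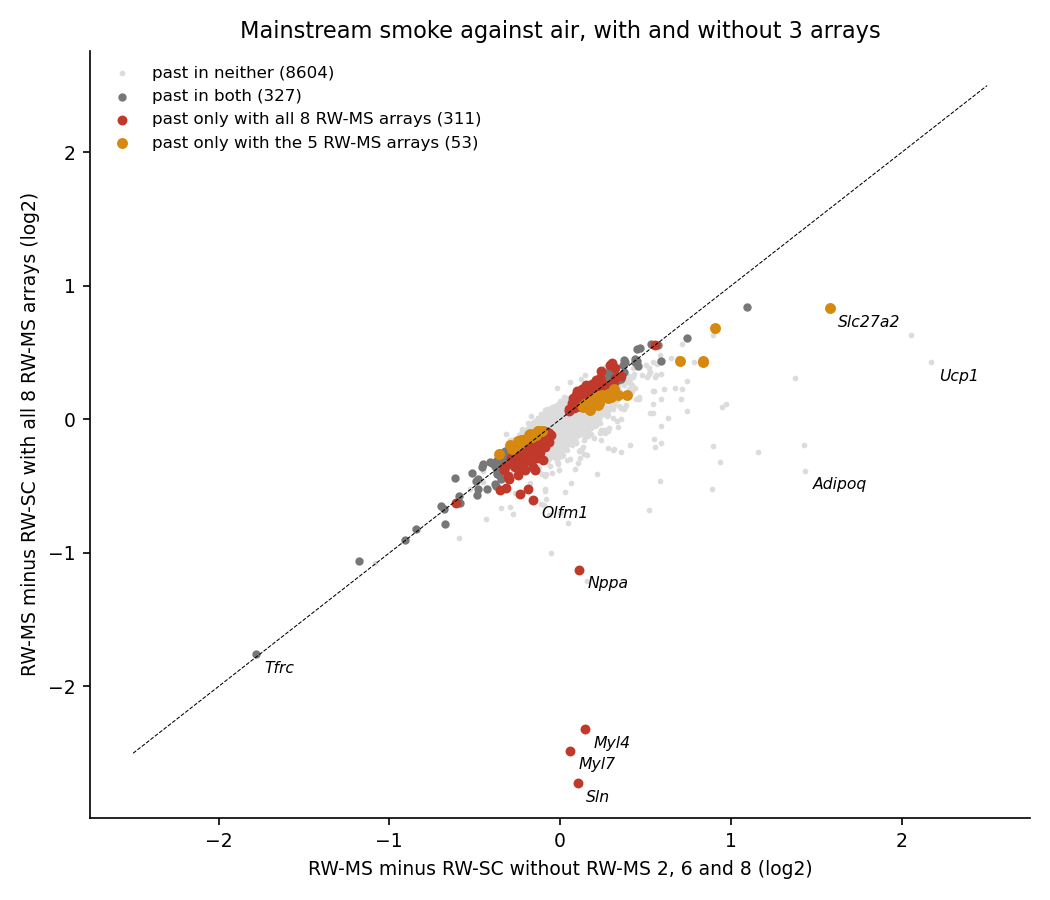
Log2 difference RW-MS minus RW-SC for each of 9295 genes, with all 8 RW-MS arrays (vertical) and without RW-MS 2, 6 and 8 (horizontal), coloured by the fits in which a gene passed the threshold, with the line of equal differences dashed. Sln, Myl7 and Myl4 lie near 0 on the horizontal axis and below -2.3 on the vertical axis, while Ucp1 and Adipoq lie far to the right.

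The other comparisons that hold RW-MS arrays share those arrays with this one. DIO-MS against RW-MS had 985 genes past the threshold (10.6%) with all arrays and 1017 (10.9%) without the 3 hearts, 700 of them shared (71.1% and 68.8%). Of the genes in 1 fit only, 147 of 317 gained and 39 of 285 lost did not overlap in the split, where 11.1% of all genes did not. RW-SS against RW-MS had 541 (5.82%) and 521 (5.61%), 317 shared (58.6% and 60.8%), and 43 of 204 gained and 27 of 224 lost did not overlap in the split. The interaction of mainstream smoke with diet had 21 (0.226%) and 23 (0.247%), 17 shared (81.0% and 73.9%). Counts that change little in size can thus hold many different genes. Genes gained or lost depend on leaving out the hearts that define the split, so their shares without overlap are partly set by that choice.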

How the data were processed

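The deposited values are log2 expression levels per probe set, and per the submitters' processing notes the authors made them with RMA, with a version and settings that the sources used here do not give. RMA corrects background, sets all arrays to 1 distribution and summarises each probe set, so a level is relative to the other RNA in its sample. The table held 22690 probe sets. The platform annotation gave 20393 of them 1 gene and 691 several, and 20364 were matched to RefSeq. They covered 12394 genes, each represented by its brightest probe set over the 45 arrays. The lowest 25% by mean (below 4.90) were left out, which kept 9295.

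The RW-MS arrays were split at 8 log2 units for Sln and compared by means and overlap, with no test. A difference was counted where the 2 sets did not overlap and their means differed by at least 1 unit. Slopes on Sln were fitted in the 37 other arrays with 5 group terms, and group means over 45 or 42 arrays, with limma 3.58.1 under R 4.3.3 (moderated linear models, two-sided, Benjamini-Hochberg over all genes within a comparison, threshold 0.05). Correlations and figures used Python 3.11.15, pandas 2.3.3, scipy 1.17.1 and matplotlib 3.10.9. The fits were tested on simulated data. The labels call the arrays biological replicates, and p-values measure the spread between them. No pairing of the groups by replicate number was seen.

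The members and gene lists were chosen with earlier results of these data known. Named genes were list members, the 15 largest differences of the split, the 10 largest slopes each way, and the 10 largest calls lost and gained without the 3 arrays. One label mentions LPS where the titles and the exposure description name smoke; smoke was taken as the exposure. Alternatives changed the probe set rule, filter, normalization, measure, model terms and arrays.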

Additional observations from a re-analysis of the deposited data

Results flagged for a closer look

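Over 26 genes and the groups of 4 to 10 arrays, 182 sets of values were examined for a highest or lowest array far from the others, and 10 were found. Many of these genes vary together and several of the 10 fall in the same array. The count therefore cannot be weighed against the 1 in 20 that chance gives, and the values below are a listing. RW-SC 4 was far below the other RW-SC arrays for 4 atrial genes: Sln (11.56), Myl4 (12.04), Nppa (13.32) and Myl1 (9.97). It was also among the 7 arrays with low Adipoq. RW-SS 4, another of those 7, was far below its group for the fat genes Ucp1 (4.49) and Car3 (8.35). Irx1 was low in DIO-MS 1 (6.61) and high in DIO-SS 5 (6.98). Ucp3 was high in RW-SS 2 (7.98). Ighm, the heavy chain of IgM, was high in DIO-SS 8 (7.37).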

How the results depend on the processing

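In the split, a size of 0.5 in place of 1 log2 unit gave 181 genes lower and 3 higher. Leaving out each RW-MS array in turn gave 54 to 71 lower and 0 to 0 higher, and choosing the arrays by Myl7 gave the same 3. The counts of slopes on Sln moved with the arrays and the model: 193 positive and 14 negative with no study group in the model, 87 negative without RW-SC, 79 positive and 13 negative without DIO-SC, 58 negative without DIO-MS, 445 negative without RW-SS and 58 negative without DIO-SS. With Adipoq beside Sln, chosen after the data were seen, they were 66 and 5, and the slopes of Scd1 (-0.0273), Cdo1 (-0.28), Hp (-0.30) and Fasn (-0.36) changed sign. Without the 4 arrays lowest for Sln they were 87 and 74. In the model with both measures, leaving out RW-SC left 31 genes positive on Sln and 94 on Adipoq, and 0 of the genes lower by at least 1 unit had both slopes in any alternative run. RW-MS against RW-SC gave 176 higher and 226 lower when only those groups were fitted, 160 and 220 without the 3 hearts, and with Sln in the model Myl4 (0.0682) and Nppa (0.0708) changed sign. Without the 3 hearts it gave 146 lower when only those groups were fitted and 105 to 168 higher and 150 to 232 lower when each remaining RW-MS array was left out, the 105 without RW-MS 3. Myl7 ranged from -0.0189 (without RW-MS 1) to 0.145 over those fits. The causes of these shifts were not tested. No pairing by the replicate number of the titles was seen. With group means removed, RW-MS and RW-SC arrays of 1 number had correlations of -0.32 to 0.30, and 1 of 8 was closest to its own number. The RW-MS values in these correlations hold the split itself, so they cannot decide whether the replicate number marks a shared block. With that number as a replicate block, slopes on Sln were positive for 210 genes and negative for 57, and RW-MS against RW-SC gave 231 higher and 351 lower with all arrays and 158 and 227 without the 3 hearts. Dim probe sets limit what the split can show, since values below about 5 log2 units are compressed.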
